A study of Homo sapiens with 2 samples.

Results

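Annexin transcripts were measured in single cells of MDAMB468 and CAL51, 2 human cell lines from triple-negative breast cancer. The group consists of 8 listed genes (ANXA1, ANXA2, ANXA3, ANXA4, ANXA5, ANXA6, ANXA7 and ANXA11) out of 30796 genes in the deposited matrix. They were chosen by name and matched to their Ensembl identifiers, all 8 were found, and all 8 passed the minimum of 20 unique molecular identifiers (UMIs) over both libraries. No treatment, genotype or time is named for either, and each line is represented by 1 Drop-seq library. Without replicate libraries, no test across samples was possible. Every interval below is a 95% interval that covers counting error only, and no difference has a replicate check.

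Annexins are cytosolic proteins that bind acidic phospholipids when calcium rises, and they bring membranes together during vesicle traffic, endocytosis, secretion and the resealing of a torn plasma membrane. All share a conserved calcium- and lipid-binding core, and they differ in the amino-terminal tail, which holds the sites for partner proteins. ANXA1 and ANXA2 bind S100 proteins through this tail, ANXA6 carries a duplicated core, and ANXA7 and ANXA11 have long tails that bind the calcium sensor PDCD6. In epithelia, ANXA2 with S100A10 lies under the plasma membrane, where the pair organises actin and serves as a docking site for plasminogen.

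The MDAMB468 library gave 306 barcodes with 5501900 UMIs and the CAL51 library 1377 barcodes. Of the CAL51 barcodes, 31 had a sequence that also occurred under the MDAMB468 prefix. These 31 were left out, so that 1346 barcodes with 16223444 UMIs remained. A further 64 MDAMB468 and 7 CAL51 barcodes were satellites, differing at 1 base from a same-line barcode 5 or more times as deep. They were kept in the levels and shares per line, and in the alternative levels with every barcode weighted equally or thinned. They were left out of the spread, the correlations, the counts of members per barcode and the levels by phase, unless stated. Epithelial markers were detected in both lines (all 6 in MDAMB468, and all but KRT7 in CAL51), at unlike levels. CDH1 was at 33.1 CPM in MDAMB468 and had only 7 UMIs in CAL51 (0.431 CPM). KRT19 was at 1934 and 30.6 CPM, whereas KRT18 was at 555 and 1555 CPM. Basal keratin genes and TP63 summed to 484 CPM in MDAMB468 and 0.986 CPM in CAL51. The mesenchymal markers COL3A1, COL1A2 and CDH2 were at 0 in MDAMB468, and all 6 mesenchymal markers were detected in CAL51. ZEB1 had 1 UMI in MDAMB468 and 1101 in CAL51. VIM was at 316 CPM in MDAMB468 and 332 CPM in CAL51, and FN1 at 4.18 and 6.16 CPM, so these markers did not all set the lines apart. The leukocyte and the endothelial markers each summed to at most 6 UMIs in either library, with PTPRC, LYZ, CDH5 and VWF at 0 in MDAMB468.

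Upstream sequences are shown for ANXA1 and ANXA2, 2 of the 3 most abundant annexins of MDAMB468, and for ANXA6, the member that differed most between the lines. Each is the 250 bases before the first RefSeq start of the gene (GRCh38.p14), read 5′ to 3′ on the strand of the gene. Capitals mark motifs found on either strand. The motifs sought were the TATA box TATAAA, the GC box GGGCGG, the AP-1 site TGANTCA, the E-box CACGTG and the palindromic glucocorticoid response element.
ANXA1 (chr9:73151615-73151864, plus strand): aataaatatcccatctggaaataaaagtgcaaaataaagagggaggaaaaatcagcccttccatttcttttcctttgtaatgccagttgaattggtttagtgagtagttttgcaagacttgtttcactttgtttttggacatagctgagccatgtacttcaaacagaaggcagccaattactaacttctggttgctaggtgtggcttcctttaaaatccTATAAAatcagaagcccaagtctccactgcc
ANXA2 (chr15:60397987-60398236, minus strand): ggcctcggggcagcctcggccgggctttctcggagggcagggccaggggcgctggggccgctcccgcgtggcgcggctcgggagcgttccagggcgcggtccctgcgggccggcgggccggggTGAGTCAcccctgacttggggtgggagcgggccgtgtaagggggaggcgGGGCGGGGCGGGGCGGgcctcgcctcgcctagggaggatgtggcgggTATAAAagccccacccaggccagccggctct
ANXA6 (chr5:151157780-151158029, minus strand): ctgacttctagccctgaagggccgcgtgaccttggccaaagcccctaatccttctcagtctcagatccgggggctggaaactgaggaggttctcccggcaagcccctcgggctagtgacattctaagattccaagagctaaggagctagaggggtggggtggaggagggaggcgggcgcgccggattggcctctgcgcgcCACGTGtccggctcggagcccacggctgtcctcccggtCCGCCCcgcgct
In ANXA1 and in ANXA2 a TATAAA began 31 bases before the start. ANXA2 also held an AP-1 match that began 127 bases before the start, and 3 GC boxes in a row, each overlapping the next by its last base. ANXA6 held an E-box match and 1 GC box, and no TATAAA in this window. No match of one motif overlapped a match of another. The ANXA1 window had 0 CG dinucleotides, the ANXA2 window 28 and the ANXA6 window 19, against a median of 11 over 35116 listed windows of the same length. Over those windows, TATAAA occurred in 10.7%, GGGCGG in 42.6%, TGANTCA in 6.57% and CACGTG in 6.34%. Among the 12 starts listed for the 8 genes, TATAAA occurred at 3 (ANXA1, ANXA2 and 1 of the ANXA11 starts) and GGGCGG at 7. The glucocorticoid response element occurred at 0 of these starts and in 1 of the 35116 windows. A 3′ library does not show which start a transcript came from, and the windows are descriptions of sequence.

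Both lines carried about the same total of annexin transcripts, and they divided it differently. The 8 genes summed to 1997 CPM (CPM are UMIs scaled to a common total per library; interval 1960 to 2035) in MDAMB468 and to 2092 CPM (interval 2070 to 2114) in CAL51, a ratio of 0.955 (interval 0.934 to 0.975). A 3′ library counts 1 end per transcript whatever its length, so UMIs of different genes were compared as molecules, and how well each end was captured was not measured. ANXA2 was the most abundant annexin of both lines. ANXA4 and ANXA6 were the only members at least 2-fold apart on the log2(CPM + 1) scale, and both were higher in CAL51. Thus 0 of 8 members were at least 2-fold higher in MDAMB468 and 2 of 8 in CAL51. Over the 15347 genes with at least 20 UMIs, 15.8% were at least 2-fold higher in MDAMB468 and 18.6% in CAL51 (34.4% in either direction), so the members' counts were near the background. Their median log2 difference (MDAMB468 minus CAL51) was -0.48, against -0.13 over all genes tested.

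**Figure D1:**
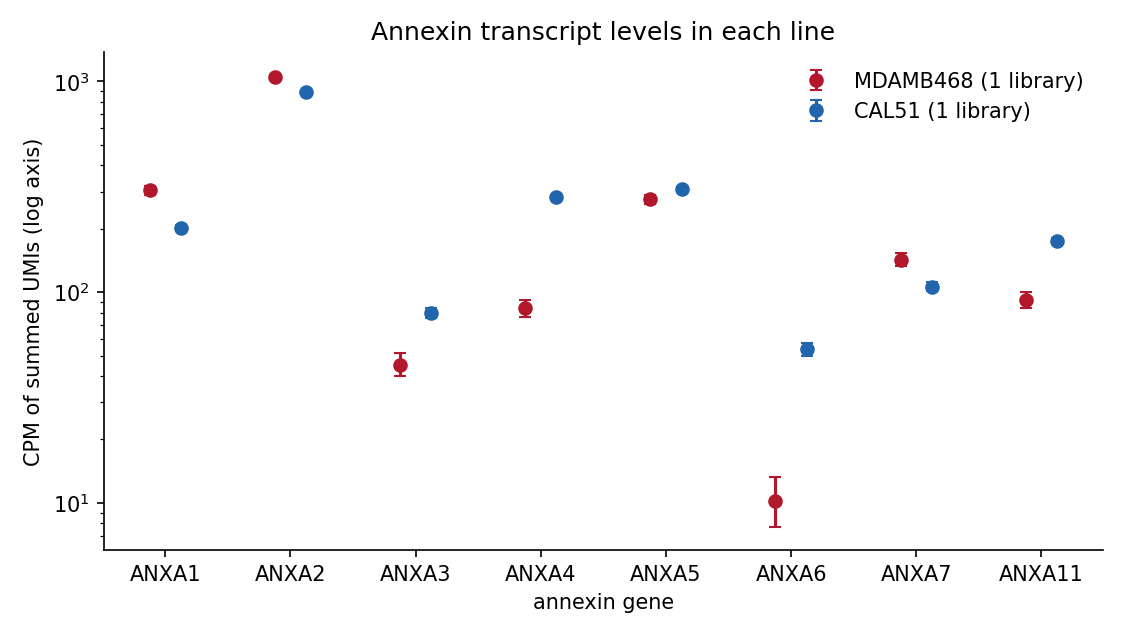
CPM of summed UMIs (log axis) of each annexin in MDAMB468 (red) and CAL51 (blue), 1 library each; points are the level and bars its exact Poisson interval. ANXA2 is highest in both lines at 1044 and 886 CPM, and the widest gap is at ANXA6, with 10.2 CPM in MDAMB468 and 53.5 CPM in CAL51.

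ANXA2 (ENSG00000182718; chromosome 15, 60347134 to 60402883), the partner of S100A10, had 5743 UMIs in MDAMB468 and 14378 in CAL51. Its level was 1044 CPM (interval 1017 to 1071) and 886 CPM (interval 872 to 901), which placed it at rank 140 of all genes in MDAMB468 and rank 171 in CAL51. The fold was 1.18 in favour of MDAMB468 (interval 1.14 to 1.21), well under 2-fold. ANXA1 (ENSG00000135046; chromosome 9, 73151757 to 73170393), a glucocorticoid-regulated annexin whose secreted form acts on formyl peptide receptors, had 1671 UMIs in MDAMB468 and 3283 in CAL51. Its level was 304 CPM (interval 289 to 319) and 202 CPM (interval 195 to 209), a fold of 1.50 in favour of MDAMB468 (interval 1.41 to 1.59). ANXA1 and ANXA2 therefore both had the higher level in MDAMB468, by less than 2-fold, in the main scaling and in all 10 alternatives. The size depended on the processing, beyond the counting intervals. Over the 10 alternatives the log2 difference of ANXA2 (0.24) ran from 0.09 to 0.43, and that of ANXA1 (0.58) from 0.44 to 0.76.

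Among the annexins with short tails, ANXA4 stood apart. ANXA4 (ENSG00000196975; chromosome 2, 69644425 to 69827100), found on secretory and apical membranes of epithelia, had 462 UMIs in MDAMB468 and 4565 in CAL51. Its level was 84.0 CPM (interval 76.5 to 92.0) and 281 CPM (interval 273 to 290), a fold of 3.35 in favour of CAL51 (interval 3.04 to 3.70) and a log2 difference of -1.73. The gene overlaps AAK1 and AC092431.1 on the opposite strand, as ANXA2 overlaps AC087385.1 and ANXA7 AL512656.1, and the sources used here do not say whether counting used the strand. ANXA5 (ENSG00000164111; chromosome 4, 121667955 to 121697113), the phosphatidylserine-binding protein used to stain dying cells, had 1517 and 4998 UMIs. It was at 276 CPM (interval 262 to 290) in MDAMB468 and 308 CPM (interval 300 to 317) in CAL51. Relative to the median of all genes its log2 difference ran from -0.05 to 0.16 over the scalings and barcode choices, so no direction is given. ANXA3 (ENSG00000138772; chromosome 4, 78551519 to 78610451), known from neutrophil granules, had 249 UMIs in MDAMB468 and 1286 in CAL51, that is 45.3 CPM (interval 39.8 to 51.2) and 79.3 CPM (interval 75.0 to 83.7). Its fold of 1.75 in favour of CAL51 (interval 1.53 to 2.01) depended on how barcodes were chosen and weighted. Its log2 difference of -0.80 became -0.42 with every barcode, satellites included, weighted equally. It became -0.29 with every barcode, satellites included, thinned to 2500 UMIs, which was -0.02 relative to the median of all genes (-0.27). With satellites left out, its mean at 2500 UMIs was 0.0868 in MDAMB468 and 0.167 in CAL51. With satellites left out of the summed UMIs, the log2 difference of ANXA3 was -0.81. The parts of weighting, satellites and the random draw in the equally weighted and thinned values were not tested.

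ANXA6 (ENSG00000197043; chromosome 5, 151100712 to 151157882), a scaffold that brings the Ras inhibitor RASA1 and protein kinase C alpha to the membrane and is linked to EGFR signalling, differed most. MDAMB468 held 56 UMIs and CAL51 868, which is 10.2 CPM (interval 7.69 to 13.2) against 53.5 CPM (interval 50.0 to 57.2). The fold was 5.26 in favour of CAL51 (interval 4.01 to 7.02), with a log2 difference of -2.29, and 10.7% of all tested genes had a larger difference in either direction. EGFR went the other way, at 459 CPM in MDAMB468 and 12.1 CPM in CAL51. MDAMB468 thus held 45.1 EGFR UMIs for each ANXA6 UMI (interval 34.6 to 59.8), and CAL51 held 0.226 (interval 0.192 to 0.264).

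The annexins with long tails differed in opposite senses. ANXA7 (ENSG00000138279; chromosome 10, 73375101 to 73414076), known as synexin for its part in granule fusion, had 784 UMIs in MDAMB468 and 1724 in CAL51. It was at 142 CPM (interval 133 to 153) and 106 CPM (interval 101 to 111), a fold of 1.34 in favour of MDAMB468 (interval 1.23 to 1.46). ANXA11 (ENSG00000122359; chromosome 10, 80150889 to 80205572), which tethers RNA granules to lysosomes, had 507 and 2839 UMIs. It was at 92.2 CPM (interval 84.3 to 100.5) in MDAMB468 and 175 CPM (interval 169 to 182) in CAL51, a fold of 1.90 in favour of CAL51 (interval 1.73 to 2.09) that lay just inside the 2-fold limit. Its log2 difference of -0.92 became -1.06 with median-of-ratios scaling, which would make it the third member past the limit.

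Each line also ranked its annexins in its own order.  In MDAMB468, ANXA2 made up 52.3% of the UMIs of the 8 genes (interval 51.3% to 53.2%), followed by ANXA1 with 15.2%, ANXA5 with 13.8%, ANXA7 with 7.13%, ANXA11 with 4.61%, ANXA4 with 4.20%, ANXA3 with 2.27% and ANXA6 with 0.510%. The intervals of the shares of ANXA11 (4.23% to 5.02%) and ANXA4 (3.84% to 4.60%) overlapped, while those of ANXA1 (14.5% to 15.9%) and ANXA5 (13.2% to 14.5%) lay side by side without overlap. In CAL51, ANXA2 made up 42.4% (interval 41.8% to 42.9%), followed by ANXA5 with 14.7%, ANXA4 with 13.4%, ANXA1 with 9.67%, ANXA11 with 8.36%, ANXA7 with 5.08%, ANXA3 with 3.79% and ANXA6 with 2.56%. There the intervals of neighbours did not overlap. ANXA4 thus moved from the sixth place in MDAMB468 to the third in CAL51, and ANXA1 from the second to the fourth. MDAMB468 held 3.62 ANXA1 UMIs for each ANXA4 UMI (interval 3.26 to 4.02) and CAL51 0.719 (interval 0.687 to 0.752). Without ANXA2, the other 7 genes together were 1.26-fold higher in CAL51 (interval 1.23 to 1.30).

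**Figure D2:**
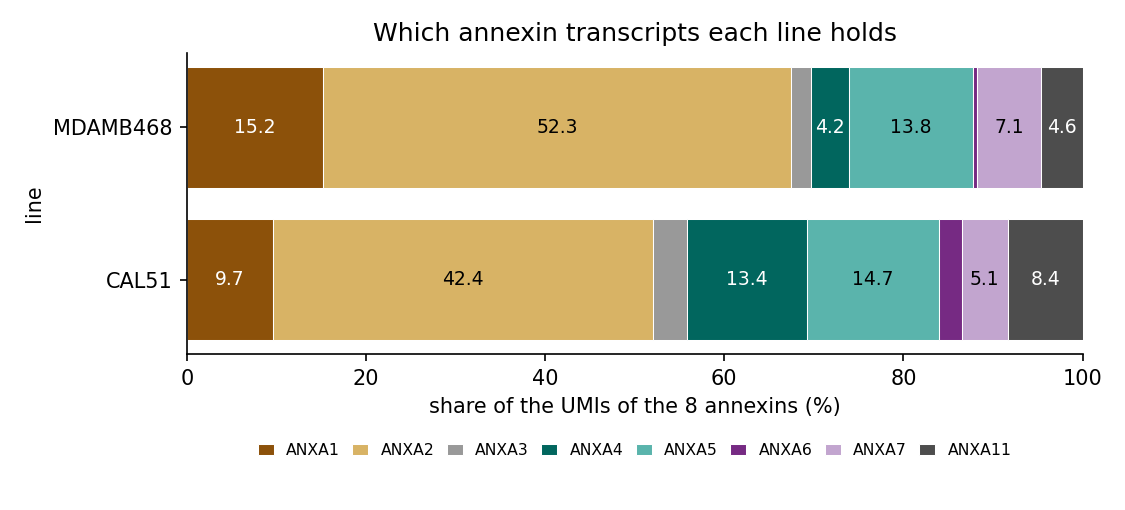
Share of the UMIs of the 8 annexins (horizontal axis, percent) that each gene takes in MDAMB468 (10989 UMIs) and CAL51 (33941 UMIs). ANXA2 takes 52.3% and 42.4%, and ANXA4 takes 4.20% in MDAMB468 and 13.4% in CAL51.

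To compare the spread between cells, each barcode was reduced to 2500 randomly drawn UMIs, a depth that none fell short of, over 242 MDAMB468 and 1339 CAL51 barcodes. ANXA2 had a UMI in 92.1% of MDAMB468 barcodes (interval 88.0% to 95.2%; 100% without thinning) and in 85.4% of CAL51 barcodes (interval 83.4% to 87.3%; 97.8% without thinning). Its median was 2 UMIs in both lines, with a highest value of 10 and of 19. ANXA1 had a UMI in 55.8% of MDAMB468 barcodes (interval 49.3% to 62.1%; 91.7% without thinning) and in 32.0% of CAL51 barcodes (interval 29.5% to 34.6%; 61.8% without thinning). ANXA4 went the other way, with 20.7% (interval 15.7% to 26.3%; 60.7% without thinning) and 41.4% (interval 38.7% to 44.1%; 72.7% without thinning). ANXA6 was seen in 7 of 242 MDAMB468 barcodes (2.89%, interval 1.17% to 5.87%; 18.2% without thinning) and in 154 of 1339 CAL51 barcodes (11.5%, interval 9.84% to 13.3%; 39.4% without thinning). ANXA5, ANXA3, ANXA7 and ANXA11 were seen in 47.5%, 7.02%, 27.3% and 17.8% of MDAMB468 barcodes and in 52.7%, 14.7%, 21.4% and 35.0% of CAL51 barcodes. Without thinning, the MDAMB468 values in the same order were 90.1%, 47.1%, 76.0% and 66.1%, and the CAL51 values 86.6%, 42.8%, 58.0% and 70.9%. For ANXA5 and ANXA3 the line with the higher share thus depended on thinning. For ANXA3, another draw gave 10.3% in MDAMB468 and 15.2% in CAL51, and keeping satellites gave 11.8% and 14.5%.

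Genes that mark the other line had almost no UMIs at this depth. KRT7 and GSTP1 were chosen as such marks from earlier results of these data. Their low counts follow from that choice and give no scale for background. The CAL51 barcodes left out, whose sequence also occurred under MDAMB468, held 106 KRT7 UMIs. KRT7 was seen in 0 of 1339 CAL51 barcodes, which allows a share of up to 0.224% on a floor of 3 barcodes (exact upper limit 0.275%), and GSTP1 in 1 of 242 MDAMB468 barcodes (0.413%, interval 0.0105% to 2.28%). By its label each library holds cells of 1 line, and free RNA from that same line was not measured by these genes. The median depth of the barcodes before thinning was 14828.5 UMIs in MDAMB468 and 8660 in CAL51.

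**Figure D3:**
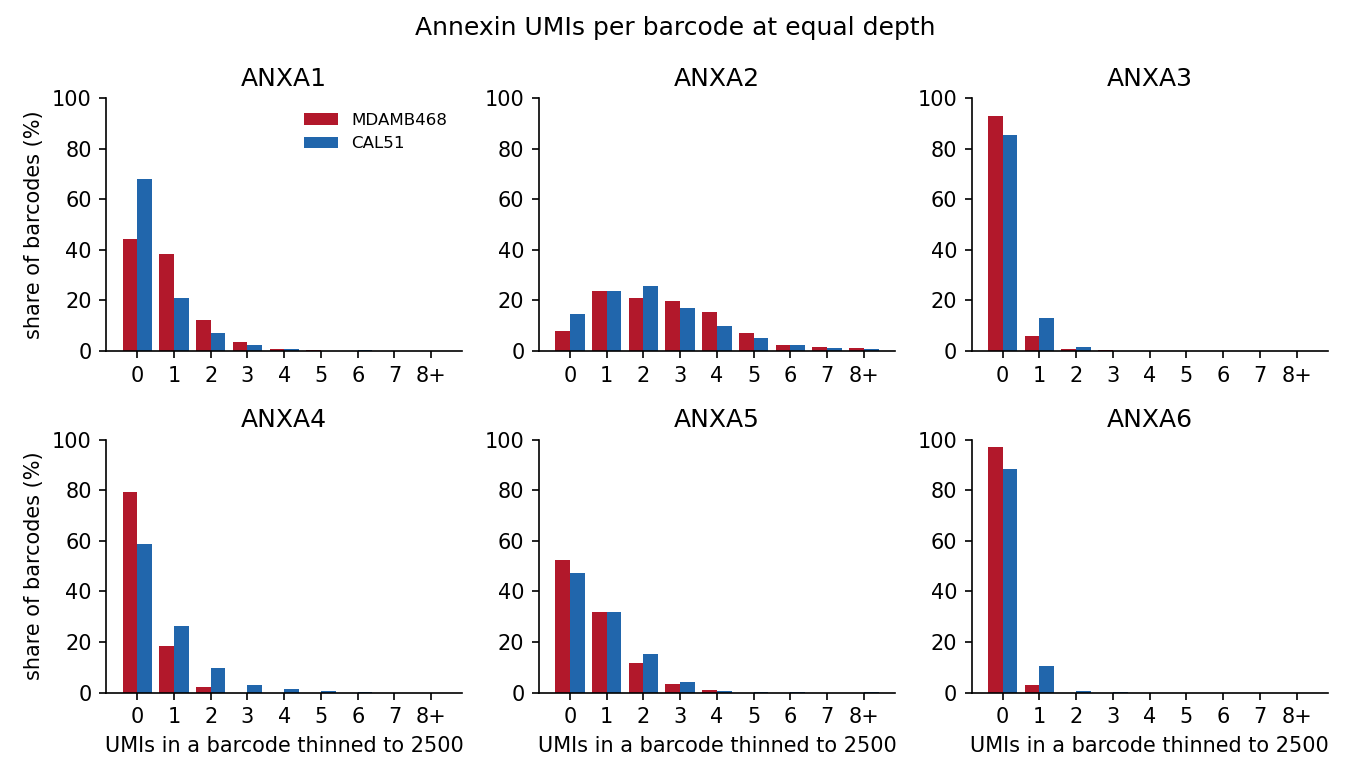
Share of barcodes (vertical axis, percent) by the number of UMIs of each of 6 annexins in a barcode thinned to 2500 UMIs (horizontal axis; 8+ is 8 or more), for 242 MDAMB468 (red) and 1339 CAL51 (blue) barcodes. Barcodes without ANXA1 are more frequent in CAL51 and barcodes without ANXA4 or ANXA6 in MDAMB468, while ANXA2 has a median of 2 UMIs in both.

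At this depth ANXA1 and ANXA4 had the highest variance relative to their mean among the annexins of CAL51. The Fano factor, variance over mean, is 1 for counts that vary by sampling alone. In CAL51 it was 1.56 for ANXA1 (mean 0.488 UMIs) and 1.47 for ANXA4 (mean 0.648), against 1.33 for ANXA2 (mean 2.19), 1.17 for ANXA5 and 1.03 to 1.09 for the other 4. The median over the 4260 CAL51 genes with a mean of at least 0.1 UMIs was 1.07 (quartiles 1.03 and 1.12). CAL51 barcodes without an ANXA1 UMI were more frequent than a Poisson count of the same mean gives, since 32.0% had one where that count gives 38.6%. In MDAMB468 the Fano factor was 1.03 for ANXA1 (mean 0.798), 0.959 for ANXA4 (mean 0.227) and 1.17 for ANXA2 (mean 2.59), with a median of 1.05 over 3844 genes. For ANXA2 another draw of the thinning gave 1.43 in MDAMB468 and 1.35 in CAL51, so which line had the higher value depended on the draw. ANXA3 had 1.40 in MDAMB468, on 17 barcodes with a UMI, and another draw of the thinning gave 1.16. At 5000 UMIs per barcode the CAL51 values were 2.38 for ANXA1 and 2.16 for ANXA4, and the MDAMB468 values 1.55 and 0.955. At 1000 UMIs the values of ANXA1 were 1.15 in CAL51 and 1.16 in MDAMB468, so at that depth its spread did not set the lines apart. ANXA2 in CAL51 was also at 1.15 at 1000 UMIs, level with ANXA1, and at 1.50 with satellite barcodes kept, beside 1.54 for ANXA1. The 5 CAL51 barcodes with the most ANXA1 UMIs held 7.80% of them with 1.92% of all UMIs, and without these 5 the level was 191 CPM in place of 203 CPM (satellites left out).

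Single cells held several annexins at once. At 2500 UMIs the median barcode of either line showed 3 of the 8 genes, with a range of 0 to 6 in MDAMB468 and 0 to 7 in CAL51. ANXA2 was the single highest annexin in 140 of 242 MDAMB468 barcodes (57.9%, interval 51.4% to 64.1%) and in 667 of 1339 CAL51 barcodes (49.8%, interval 47.1% to 52.5%). ANXA4 was the highest in 1 MDAMB468 barcode (0.413%) and in 79 CAL51 barcodes (5.90%), and ANXA5 in 11 (4.55%) and 96 (7.17%). A tie or no annexin UMI was found in 26.4% and 27.6%. The barcode richest in annexins was a CAL51 one with 33 UMIs of the 8 genes among 2500, of which 19 were ANXA2 and 10 ANXA5. The richest MDAMB468 barcode had 14, of which 10 were ANXA2.

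Genes that varied with an annexin from cell to cell were sought within each line, over barcodes thinned to 5000 UMIs (208 in MDAMB468 and 1069 in CAL51). Pearson's r of the square roots of the UMIs was low throughout, and these values are descriptions, since the barcodes of a line share a library and the counts are sparse. The highest r of any member was 0.30, between ANXA4 and S100A10 in CAL51, followed there by ASRGL1 (0.28) and the ferritin gene FTH1 (0.27). Means of S100A10 by ANXA4 count come from the same thinned barcodes and restate this r. CAL51 barcodes with 0 ANXA4 UMIs held a mean of 0.924 S100A10 UMIs (437 barcodes, interval 0.837 to 1.02), those with 1 or 2 held 1.58 (446 barcodes, interval 1.46 to 1.70), and those with 3 or more held 2.52 (186 barcodes, interval 2.30 to 2.76). In MDAMB468, barcodes with 0 and with 1 or 2 ANXA4 UMIs held 6.24 and 6.32 S100A10 UMIs, with overlapping intervals. ANXA4 was below the minimum mean of 0.5 UMIs for correlations there, with 145 of 208 barcodes at 0 and 1 at 3 or more. Such sparse counts cannot show whether the 2 genes vary together in MDAMB468. ANXA2 varied in CAL51 with COX6C (0.26), S100A6 (0.25) and S100A10 (0.24). In MDAMB468 its highest r were with LGALS1 (0.27), ZFAND5 (0.21) and TMSB4X (0.20), and its r with S100A10 was 0.14. The lowest r of ANXA2 in MDAMB468 was -0.25, of similar size to the highest. Thinning to 2500 UMIs kept 0 of its 3 highest genes in MDAMB468 and 3 of 3 in CAL51.

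ANXA1 in CAL51 varied with the retinaldehyde dehydrogenase gene ALDH1A1 (0.22), TM4SF1 (0.17) and TMSB4X (0.16), and its r with ANXA4 was -0.02. In the same thinned barcodes, and so restating that r, the mean of ALDH1A1 was 2.16 UMIs in CAL51 barcodes with 0 ANXA1 UMIs (559 barcodes, interval 2.04 to 2.29). It was 4.28 in those with 3 or more (126 barcodes, interval 3.92 to 4.65). ANXA11 in CAL51 varied with its S100 partner S100A6 (0.20), PRDX1 (0.19) and TKT (0.18). The highest r of ANXA5 in CAL51 was 0.15 (CYB5A) and that of ANXA7 was 0.14 (ATP1B1). In MDAMB468 the highest r of ANXA1 (NME1, 0.23), ANXA5 (RBBP7, 0.23), ANXA7 (MED10, 0.25) and ANXA11 (MRPL12, 0.25) stood little above that of their next genes. Their lowest r, in the same order, was -0.24, -0.25, -0.24 and -0.23, of similar size to the highest. Another draw of the thinning kept at most 1 of the 3 highest genes for any member for which it gave values in MDAMB468. In CAL51 that draw kept all 3 genes for ANXA4, 2 of 3 for ANXA1 and for ANXA2, 1 of 3 for ANXA5 and for ANXA11, and 0 of 3 for ANXA7.

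Annexin levels also differed between called cell cycle phases in CAL51. Phases were called from S phase and G2 and M phase gene lists, none of which holds an annexin. The barcodes of both lines were scored together. G1 was the remainder, given to barcodes with both scores negative, and whether these cells were in G1 was not tested. ANXA4 stood at 474 CPM in the 106 CAL51 barcodes called G1 (interval 432 to 519), at 286 CPM in the 417 called S (interval 271 to 302) and at 262 CPM in the 816 called G2M (interval 252 to 272). ANXA5 stood at 403 CPM in G1 (interval 364 to 444) against 307 and 300 CPM, and ANXA2 at 1126 CPM (interval 1061 to 1195) against 899 and 855 CPM. ANXA1, ANXA6 and ANXA11 also had their highest level in G1, at 260, 79.7 and 228 CPM, with intervals clear of those in S and in G2M. For ANXA3 and ANXA7 the interval in G1 overlapped both others.

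In MDAMB468 the interval of ANXA2 in G1 (1121 CPM, interval 1053 to 1192) was clear of that in G2M (1003 CPM, interval 969 to 1038) and overlapped that in S. For the other 7 members the interval in G1, with 47 barcodes, overlapped those in S and in G2M. Barcodes called G1 in CAL51 had a median of 6975.5 UMIs, below the 7831 of S and the 9525 of G2M, and the part of depth and of free RNA in these levels was not tested. Calling phases at 1000 UMIs gave 424 CPM for ANXA4 and 1044 CPM for ANXA2 in G1.

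**Figure D4:**
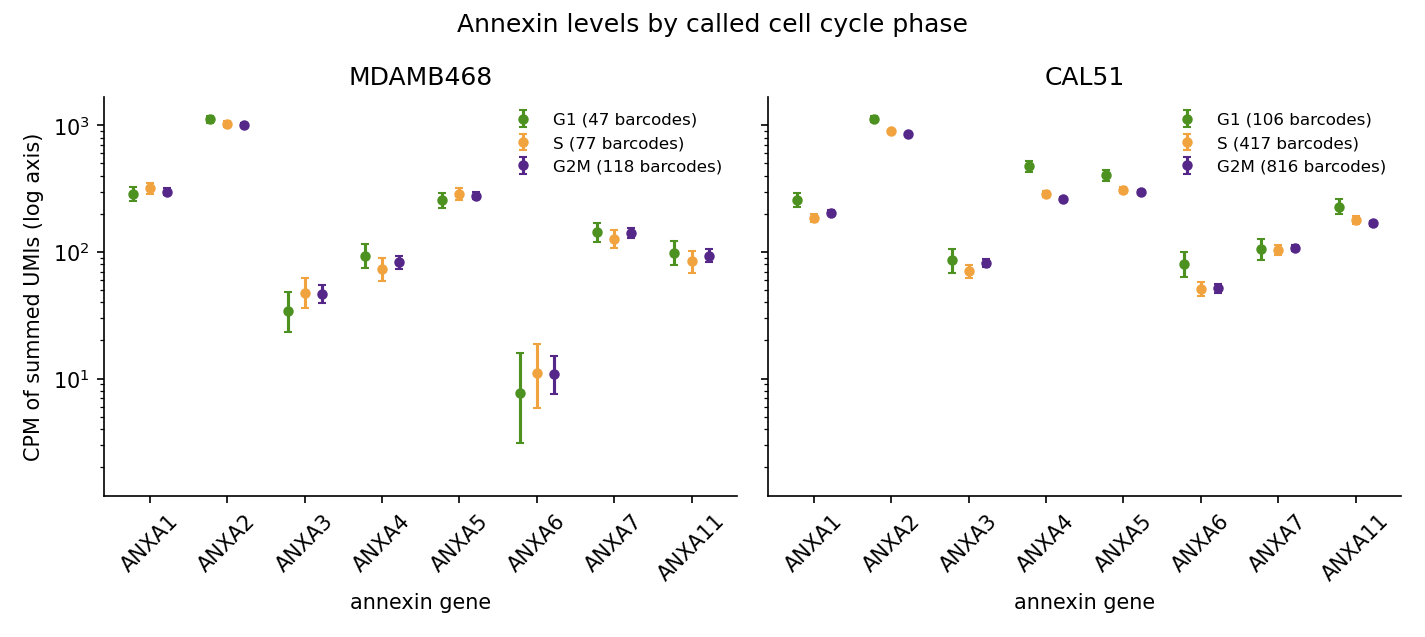
CPM of summed UMIs (log axis) of each annexin by called phase, in MDAMB468 (left) and CAL51 (right); points are levels of all barcodes of a phase in the 1 library and bars exact Poisson intervals. In CAL51, ANXA4 is at 474 CPM in G1 and at 286 and 262 CPM in S and G2M, whereas most intervals of MDAMB468 overlap.

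The calcium-binding partners were next compared, from 5 lists with 37 partner genes, of which 33 were found in the matrix and 27 had at least 20 UMIs. Of the 7 S100 and EF-hand partners, 2 were at least 2-fold higher in MDAMB468 and 0 in CAL51, beside 15.8% and 18.6% of all genes tested. S100A10, the obligate partner of ANXA2 in the plasma membrane complex, was at 1260 CPM (interval 1230 to 1290) in MDAMB468 and 293 CPM (interval 285 to 301) in CAL51, a fold of 4.30 (interval 4.14 to 4.46). S100A11, which binds the tail of ANXA1, was at 1033 and 463 CPM, a fold of 2.23 (interval 2.15 to 2.31), although 1 in place of 2 of these genes passed 2-fold when barcodes were weighted equally. MDAMB468 held 1.21 S100A10 UMIs for each ANXA2 UMI (interval 1.17 to 1.25) and CAL51 0.331 (interval 0.320 to 0.342). S100A10 UMIs thus outnumbered ANXA2 UMIs in MDAMB468 and were fewer in CAL51, although ANXA2 itself differed by 1.18-fold. Capture of each end and the amounts of the 2 proteins were not measured, so these ratios do not give the balance within the complex. S100A6 was at 1008 and 1050 CPM, and PDCD6, the partner of ANXA7 and ANXA11, at 107 and 68.2 CPM, which is 1.16 and 0.390 UMIs for each ANXA11 UMI and 0.750 and 0.642 for each ANXA7 UMI. At equal depth S100A10 had a Fano factor of 1.12 in MDAMB468 (mean 3.24 UMIs) and of 1.69 in CAL51 (mean 0.718).

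Of the 9 membrane repair and scaffold genes with at least 20 UMIs, 0 were at least 2-fold higher in MDAMB468 and 3 in CAL51, beside the same 15.8% and 18.6% of all genes. With a pseudocount of 10 CPM, and also with barcodes weighted equally, 2 in place of 3 passed. The 3 genes were CAPNS1, the small subunit of the calpain proteases (54.5 and 198 CPM), AHNAK, a giant scaffold that binds ANXA2 with S100A10 (62.2 and 140 CPM), and the acid sphingomyelinase gene SMPD1 (4.18 and 11.7 CPM). The calpain large subunit genes CAPN1 (68.5 and 41.1 CPM) and CAPN2 (141 and 106 CPM) lay within 2-fold, as did the ferlin MYOF (128 and 71.2 CPM) and the ESCRT genes CHMP4B, VPS4B and PDCD6IP. DYSF and TRIM72 had 0 UMIs in MDAMB468 and 2 each in CAL51.

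In the plasmin system around ANXA2, both genes with at least 20 UMIs were higher in MDAMB468. The urokinase gene PLAU had 342 UMIs in MDAMB468 and 23 in CAL51 (62.2 and 1.42 CPM), a fold of 43.8 (interval 28.7 to 70.1), and its receptor PLAUR 163 and 96 UMIs (29.6 and 5.92 CPM), a fold of 5.01 (interval 3.87 to 6.51). Plasminogen (PLG) had 1 and 0 UMIs, and the tissue activator gene PLAT 0 and 6. On the ANXA1 axis, the glucocorticoid receptor gene NR3C1 was at 26.5 CPM in MDAMB468 and 1.29 CPM in CAL51, a fold of 20.5 (interval 12.9 to 34.1), and DUSP1 at 56.5 and 19.3 CPM. PER1 was more than 2-fold higher in CAL51 (7 and 118 UMIs), though not with a pseudocount of 10 CPM, and the glucocorticoid-responsive genes FKBP5 (18.9 and 18.5 CPM) and TSC22D3 (10.4 and 7.27 CPM) lay within 2-fold. FPR2 had 1 and 0 UMIs. Of the ANXA6 partners, RASA1 was at 26.7 and 26.3 CPM, CAV1 at 153 and 149 CPM and PRKCA at 5.09 and 2.96 CPM, with EGFR the one member past 2-fold. Over all 27 partner genes tested, 7 were at least 2-fold higher in MDAMB468 and 4 in CAL51, beside the 15.8% and 18.6% of all genes, and their median log2 difference was 0.41.

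**Figure D5:**
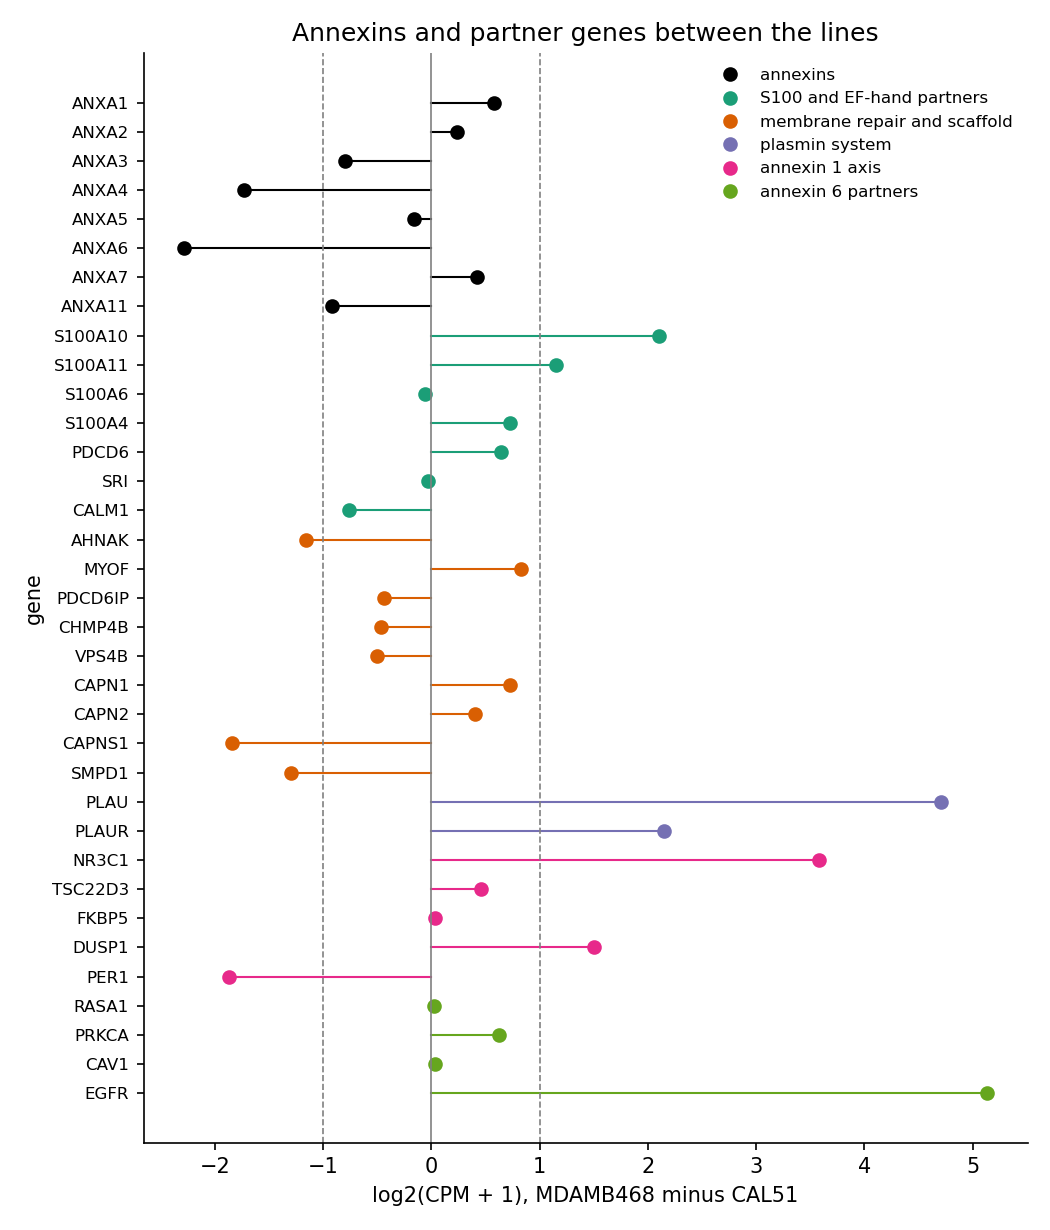
Difference in log2(CPM + 1), MDAMB468 minus CAL51 (horizontal axis), for the 8 annexins and the 27 partner genes with at least 20 UMIs, coloured by list; dashed lines mark 2-fold. ANXA6 at -2.29 and ANXA4 at -1.73 lie left of the limit, and EGFR at 5.14, PLAU at 4.71 and S100A10 at 2.10 right of it.

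Other annexin genes were read from the same matrix. ANXA8 (186 and 2 UMIs) and its near-identical copy ANXA8L1 (114 and 0 UMIs) were found almost only in MDAMB468. In the last 500 bases of the longest transcript, 88.9% of the stretches of 50 bases of ANXA8 also occur in ANXA8L1, so the division between them is uncertain. Together they had 300 UMIs in MDAMB468 (54.5 CPM) and 2 in CAL51 (0.123 CPM), 442 times as much (interval 121 to 3669). Against a floor of 3 counts in CAL51, ANXA8L1 alone was at least 112-fold higher in MDAMB468, and the exact lower limit of its fold, which adds the counting error of both libraries, was 89.7. ANXA9 had 13 and 2 UMIs and ANXA13 had 6 and 2. The processed pseudogene ANXA2P2 had 201 and 157 UMIs (36.5 and 9.68 CPM), a fold of 3.78 in favour of MDAMB468 (interval 3.05 to 4.68), and 54.8% of the 50-base stretches at its end also occur in ANXA2. Adding it to ANXA2 moved the fold between the lines from 1.18 to 1.21. None of the 50-base stretches in the last 500 bases of the 8 members occurred in another member.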

How the data were processed

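Single-cell 3′ libraries of MDAMB468 and CAL51 were made with Drop-seq, per the labels' protocols. The authors deposited UMI counts (whole numbers) for every gene in every barcode, and STARsolo is named in the submitters' processing notes. The sources used here do not give its version and settings, the genome build, the annotation or the barcode selection. The barcode prefix assigned each barcode to its line. Symbols were found for 30730 of 30796 identifiers, and positions came from GENCODE release 29 (GRCh38). Protein sequences were not used here.

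The members, the partner lists and the tests were chosen with earlier results of these data known. All 8 members, the other annexins, every partner with at least 20 UMIs and the 3 genes of highest r per member and line could be named. The gene pairs compared by mean per barcode, the promoter motifs and the richest barcodes were chosen after values were seen.

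UMIs were summed per line, over all MDAMB468 barcodes and over CAL51 barcodes whose sequence did not occur under both prefixes, and scaled to CPM. Totals per barcode ran from 2501 to 134213 UMIs in MDAMB468 and from 2506 to 113702 in CAL51. Line differences are log2(CPM + 1), MDAMB468 minus CAL51, a scale that understates differences of low genes. Called means at least 2-fold on that scale among genes with at least 20 UMIs. CPM carry exact Poisson intervals, folds exact intervals conditional on the summed count, and shares exact Clopper-Pearson intervals, all at 95% and for counting error only. No doublet caller was run, so doublets remain. Phases were called with scanpy 1.11.5. Intervals came from scipy 1.17.1 under Python 3.11.15, tables were handled with pandas 2.3.3 and numpy 2.4.6, and edgeR 4.0.16 (R 4.3.3) gave the TMM factors alone. The scripts were tested on simulated data. Alternatives covered the pseudocount, scaling, low-count filter, barcode choice, weighting, thinning depth and draw, and the correlation measure.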

Additional observations from a re-analysis of the deposited data

Results flagged for a closer look

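The 31 CAL51-labelled barcodes whose sequence also occurs under MDAMB468 were left out of the values reported and entered only the alternatives that keep all barcodes. They held 336 annexin UMIs among 135240. These were marked because they are a signal in barcodes that the reported comparisons do not use. Their ANXA4 level was 104 CPM (interval 56.6 to 174), beside 84.0 CPM in MDAMB468 and 281 CPM in CAL51. ANXA6 had 1 UMI there (7.39 CPM, interval 0.187 to 41.2). KRT7, at 0 in the other CAL51 barcodes, had 106 UMIs in them (784 CPM), and GSTP1, at 1.64 CPM in MDAMB468, had 310 (2292 CPM). They thus held transcripts that mark each line.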

How the results depend on the processing

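No difference has a replicate check, and depth limits ANXA6 in MDAMB468 most, with 56 UMIs. No paired analysis was possible because each line has 1 library. All 8 members kept the sign of their log2 difference in all 10 alternatives, and 0 of 8 were at least 2-fold higher in MDAMB468 in each. The number at least 2-fold higher in CAL51 was 2 or 3. The median of all genes moved from -0.13 to -0.24 with TMM factors and to -0.25 with the median of ratios. The members' median log2 difference moved from -0.48 to -0.61 (TMM), -0.62 (median of ratios), -0.30 (barcodes weighted equally, satellites kept) and -0.20 (thinned to 2500 UMIs, satellites kept). The lowest difference in size of ANXA6 was -1.65, with a pseudocount of 10 CPM. The ANXA2 share became 53.8% in MDAMB468 and 43.1% in CAL51 as the mean over barcodes. The count of genes at least 2-fold higher in MDAMB468, 2429, became 1046 with a pseudocount of 10 CPM, 1231 with thinning and 1337 with at least 100 UMIs, and that in CAL51, 2847, became 1146 with a pseudocount of 10 CPM. The cause was not tested, apart from fewer genes being tested (10729 with thinning and 10960 with at least 100 UMIs, of 15347). With barcodes weighted equally, 1 S100 partner in place of 2 was at least 2-fold higher in MDAMB468.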
